A study of Mus musculus with 7 samples.

Results

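Chemokines are small secreted proteins that steer the migration of blood cells, and chemokine receptors are the membrane proteins that read them. The genes described here were the rows of the deposited count table whose symbol begins with Ccl, Cxcl, Ccr, Cxcr or Ackr followed by a number and at most 1 letter, together with Cx3cl1, Cx3cr1, Xcl1, Xcr1 and Ccrl2. This rule found 62 genes among 34305 rows, made up of 39 ligands and 23 receptors. Of these, 37 carried enough counts to be tested between the transduced groups, and the other 25 are accounted for at the end. Platelet chemokines named outside this symbol scheme, Pf4 and Ppbp, were not members and are given with the other genes of the pathway.

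Ligands are grouped as CC, CXC, CX3C or XC by the spacing of their first cysteines, and most bind several receptors of the matching class. The receptors couple to inhibitory G proteins, which drive directed movement through Rac and phosphoinositide 3-kinase, and they are then switched off by receptor kinases, arrestins and RGS proteins. Atypical receptors bind chemokines without this signalling and remove or redistribute them. In bone marrow, Cxcl12 acting on Cxcr4 retains stem cells and immature neutrophils, whereas Cxcr2 promotes the release of mature neutrophils and Ccr2 the release of monocytes.

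The libraries came from mouse haematopoietic stem and progenitor cells (HSPCs) that were transduced with a plasmid, sorted and cultured for 7 to 9 days before RNA was purified. Expression was forced with MN1, a transcriptional co-regulator and leukaemia oncogene, in 3 libraries, and with MN1pQdel in 3 libraries. The series text calls the latter MN1-∆pQ, a form without the polyglutamine stretch. A single library, noTD, came from untransduced cells. All groups shared a medium with 15% serum, murine IL-3, murine IL-6 at 10 ng/mL and murine SCF at 20 ng/mL, so no group was free of these cytokines. Messenger RNA was selected by its poly(A) tail and read from both ends over 150 bases. Strain, age and sex of the mice, and the promoter that drives the transgenes, are not stated by the labels. The series describes the samples of a group as independent and does not tie them to separate animals, and every p-value below therefore reflects only how these libraries scatter, which may be technical.

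Library totals ran from 38210847 to 67728808 counts, and replicates of each group differed well beyond sampling noise. Levels below are in CPM, counts relative to a library size scaled by the trimmed mean of M-values (TMM). MN1pQdel replicate 2 stood apart from the other MN1pQdel libraries in many of the values below, and results are given with and without it where it decides them. Mn1 itself was counted at 314, 287 and 288 CPM in MN1 replicates 1 to 3, at 691, 404 and 728 CPM in MN1pQdel and at 33.6 CPM in noTD. The 2 transduced groups thus differed in the counted level of Mn1 as well as in the construct, and these cannot be told apart. The species of the MN1 construct is not stated, so counts on mouse transcripts may under-read the transgenes. Stem and progenitor markers were present in every library: summed over 11 genes they reached 1871 to 2484 CPM in MN1, 1207 to 2492 CPM in MN1pQdel and 2322 CPM in noTD. The sum covers genes that went opposite ways. Means in MN1 and MN1pQdel were 585 and 226 CPM for Cd34, 552 and 193 CPM for Adgrg1 and 87.6 and 2.84 CPM for Flt3. Kit (326 and 552 CPM) and Gata2 (401 and 774 CPM) had lower means in MN1. By the test described below, 4 of the 11 were higher in MN1 and 0 lower, beside 6.08% and 11.1% of all genes.

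Chemokine and receptor genes together took a smaller share of the counts in MN1 than in the other libraries. The 62 genes held 0.109%, 0.0716% and 0.113% of all counts in MN1 replicates 1 to 3. In MN1pQdel replicates 1 to 3 the share was 0.431%, 0.124% and 0.414%, and in noTD it was 0.445%. MN1pQdel replicate 2 lay close to the MN1 libraries, although the 2 groups did not overlap. Most of this contrast came from 1 ligand, Ccl6, which supplied 63.6%, 32.7% and 65.2% of the members' counts in MN1pQdel, 59.0% in noTD and 14.2% to 24.5% in MN1. With Ccl6 left out, the summed level of the other 61 genes was 818, 573 and 779 CPM in MN1, 1730, 840 and 1542 CPM in MN1pQdel and 1935 CPM in noTD.

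Between MN1 and MN1pQdel, 7 of the 37 tested genes passed the threshold of an adjusted p under 0.05 in edgeR's quasi-likelihood test with Benjamini-Hochberg adjustment over all 14808 genes tested. This was 18.9% of the members tested, beside 17.2% of all genes tested. The ligands Ccl1 and Cxcl10 were higher in MN1, beside 6.08% of all genes called higher. The ligands Ccl6 and Ccl9 and the receptors Ccr1, Cxcr2 and Cxcr4 were lower in MN1, beside 11.1% of all genes called lower. In 14 of the 37 genes the libraries of the 2 groups did not overlap, which is 37.8%, beside 43.6% of all genes. The share of members called was therefore near that of all genes, and the genes are described below for what they are and not for their number. The 23 ligands tested had a median log2 fold change of 0.07 and the 14 receptors one of -1.03, beside -0.01 over all genes. None of the 14 receptors was called higher.

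**Figure D1:**
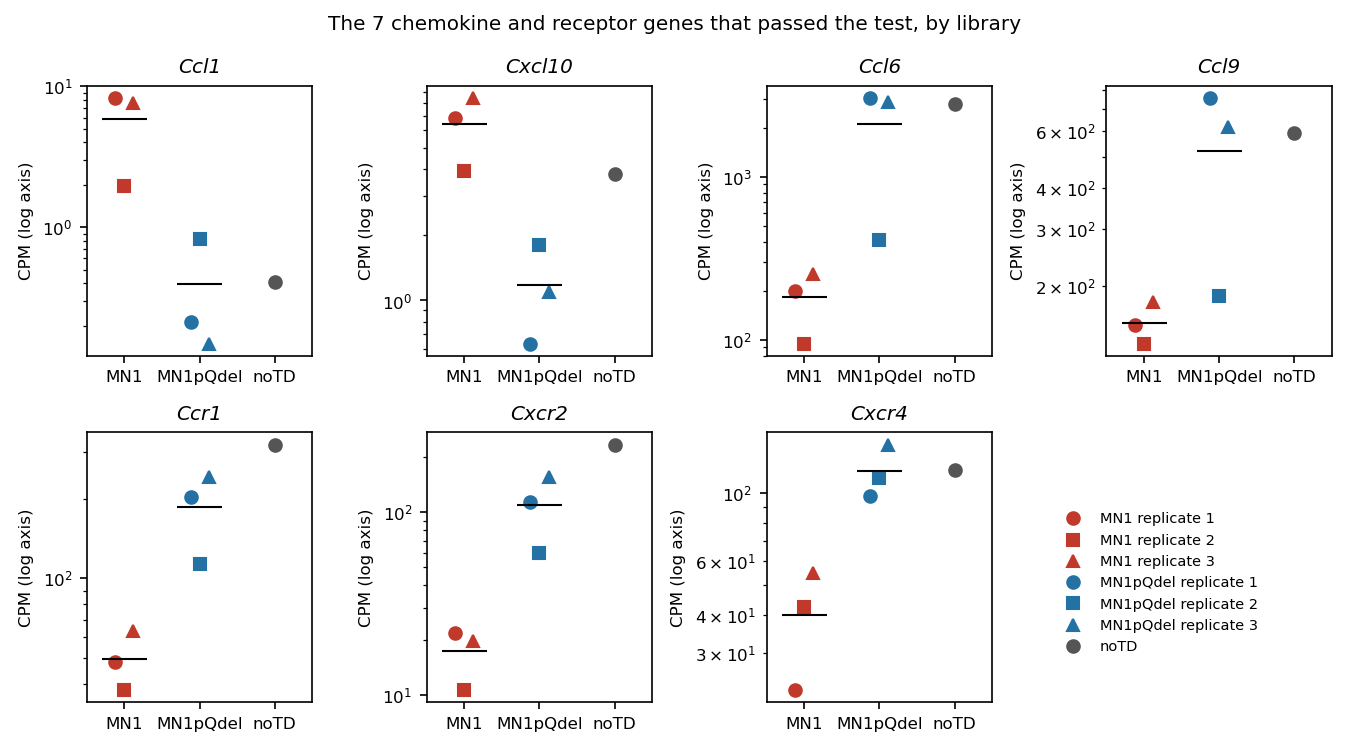
Level of the 7 genes that passed the test, in CPM on a log axis, with 1 point per library and groups along the horizontal axis. Ccl6, Ccl9, Ccr1, Cxcr2 and Cxcr4 lie lower in all 3 MN1 libraries than in all 3 MN1pQdel libraries, and Ccl1 and Cxcl10 lie higher.

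The DNA just before the start sites of 5 of the called genes is shown because they include neighbours that were lower together and the genes that went the other way. The sequences are RefSeq's on GRCm38.p6, 250 bases up to the start site, 5′ to 3′ on the gene's own strand. Capitals mark matches to any of 5 short motifs searched on both strands. They are TTNNGNAA (C/EBP), GAGGAAGT (PU.1), GGG and TTTCC with any 2 bases between them (NF-kB), GAAA and GAAA with any 2 bases between them (an interferon response element, ISRE) and TGANTCA (AP-1).
Ccl6 (chr11:83593088-83593337, minus strand): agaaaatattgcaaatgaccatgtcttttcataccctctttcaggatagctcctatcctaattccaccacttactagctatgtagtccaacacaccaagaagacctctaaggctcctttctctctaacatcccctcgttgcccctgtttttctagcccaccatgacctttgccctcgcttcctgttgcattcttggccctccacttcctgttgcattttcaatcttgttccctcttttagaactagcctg
Ccl9 (chr11:83578637-83578886, minus strand): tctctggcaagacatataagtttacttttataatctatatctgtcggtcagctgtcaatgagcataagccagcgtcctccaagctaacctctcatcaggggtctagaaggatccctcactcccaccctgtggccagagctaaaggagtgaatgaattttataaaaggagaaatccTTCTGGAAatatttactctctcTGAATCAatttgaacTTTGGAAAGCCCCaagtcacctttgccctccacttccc
Ccl1 (chr11:82179813-82180062, minus strand): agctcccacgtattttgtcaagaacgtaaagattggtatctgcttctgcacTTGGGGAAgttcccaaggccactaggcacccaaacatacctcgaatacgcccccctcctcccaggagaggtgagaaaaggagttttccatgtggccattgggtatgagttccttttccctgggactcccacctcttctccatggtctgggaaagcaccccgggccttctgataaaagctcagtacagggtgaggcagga
Cxcl10 (chr5:92348890-92349139, minus strand): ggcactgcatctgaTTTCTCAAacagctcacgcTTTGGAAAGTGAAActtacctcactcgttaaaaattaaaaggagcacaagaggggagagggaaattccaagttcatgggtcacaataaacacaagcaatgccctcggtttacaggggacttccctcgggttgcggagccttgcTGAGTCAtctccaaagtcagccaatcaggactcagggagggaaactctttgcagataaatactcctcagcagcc
Cxcr2 (chr1:74153744-74153993, plus strand): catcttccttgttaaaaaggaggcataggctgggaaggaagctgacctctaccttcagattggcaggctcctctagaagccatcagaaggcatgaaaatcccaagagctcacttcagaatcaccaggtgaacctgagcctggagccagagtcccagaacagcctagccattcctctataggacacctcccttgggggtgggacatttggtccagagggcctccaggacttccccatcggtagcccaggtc
Among 32851 RefSeq promoters of this length, the C/EBP letters were found in 36.8%, the PU.1 letters in 2.44%, the NF-kB letters in 1.41%, the ISRE letters in 2.98% and the AP-1 letters in 6.75%. A RefSeq promoter was matched for 46 of the 62 members, 27 of them tested. The C/EBP letters occurred in 13 of these 27 and the NF-kB letters in 5, which were Ccl9, Ccr3, Cxcl1, Cxcl2 and Cxcl3. Ccl9 held C/EBP matches 75 and 38 bases before its start and an AP-1 match 53 bases before it. An NF-kB match 35 bases before the Ccl9 start overlapped the nearer C/EBP match. Cxcl10 was the only one of the 27 with the ISRE letters, 213 bases before its start and overlapping a C/EBP match at 217 bases. Another C/EBP match of Cxcl10 lay 236 bases before its start, and its AP-1 match lay 74 bases before it. Ccl1 held 1 C/EBP match, 199 bases before its start. No motif searched was found in the windows of Ccl6 and Cxcr2, which says only that these letters are not there.

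Ccl6 was the most abundant chemokine message of the cultures outside the MN1 group. It encodes a mouse CC ligand made by myeloid cells that acts through Ccr1, and it lies on chromosome 11 at 83587882 to 83593087 (GRCm38, minus strand, protein coding). Per kilobase of transcript, its mean level was 1461 CPM in MN1pQdel and 1930 CPM in noTD, and 127 CPM in MN1. By library it stood at 200, 95 and 254 CPM in MN1 replicates 1 to 3, at 3022, 407 and 2884 CPM in MN1pQdel and at 2779 CPM in noTD. MN1pQdel replicates 1 and 3 lay close to the untransduced library, replicate 2 was far lower, and no MN1 library reached it. Ccl6 was lower in MN1 by a log2 fold change of -3.54 ± 0.78 (SE, n = 3 against 3, edgeR adjusted p = 0.0289). The call was kept without MN1pQdel replicate 2 (-4.01, adjusted p = 0.00116) and lost without any other single library. In those 5 fits (without MN1 replicates 1, 2 or 3 or MN1pQdel replicates 1 or 3) the log2 fold change lay between -3.84 and -3.17, with adjusted p from 0.0722 to 0.103. In bulk RNA, fewer cells of a type and less RNA per cell cannot be told apart, here and in every result below.

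Ccl9, the neighbour of Ccl6 and like it a Ccr1 ligand, had the same pattern at a smaller size. It lies at 83572919 to 83578636 on the minus strand of chromosome 11. Its level was 153, 133 and 179 CPM in MN1 replicates 1 to 3, against 755, 187 and 616 CPM in MN1pQdel and 590 CPM in noTD. Again MN1pQdel replicate 2 was the lowest of its group and lay just above the highest MN1 library. Ccl9 was lower in MN1 (log2 fold change -1.76 ± 0.47, edgeR adjusted p = 0.0478), a value near the threshold. It was called in 1 of the 6 fits with a library left out, that without MN1pQdel replicate 2 (-2.14, adjusted p = 0.000708). In the other 5 fits, each without 1 of the 3 MN1 libraries or MN1pQdel replicates 1 or 3, it ran from -1.86 to -1.38 with adjusted p from 0.121 to 0.156. With libraries scaled by their totals alone it also missed the threshold (adjusted p = 0.0531).

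Levels of these 2 ligands moved across libraries with markers of several cell types, among them eosinophils, mast cells and basophils. Ccl6 and Ccl9 were high in MN1pQdel replicates 1 and 3 and in noTD, and low in MN1pQdel replicate 2 and in MN1. The summed level of 8 eosinophil markers was 20.4, 13 and 20.5 CPM in MN1, 3398, 235 and 3644 CPM in MN1pQdel and 3797 CPM in noTD. Of these 8 genes 7 were lower in MN1, and their most abundant member, the granule protein gene Prg2, stood at 6.5 to 11.5 CPM in MN1 and 127 to 2115 CPM in MN1pQdel. None of the 8 was at 0 in any library. Neutrophil markers, 11 of 11 lower in MN1, summed to 4310 to 7910 CPM in MN1, 26500 to 36851 CPM in MN1pQdel and 38243 CPM in noTD, with no comparable drop in MN1pQdel replicate 2. Monocyte and macrophage markers, 7 of 11 lower, summed to 1750 to 1895 CPM in MN1, 3712 to 5935 CPM in MN1pQdel and 8200 CPM in noTD. Mast cell markers, 6 of 10 lower, summed to 1479 to 3607 CPM in MN1, 14643, 2819 and 17318 CPM in MN1pQdel replicates 1 to 3 and 15062 CPM in noTD. Basophil markers, 3 of 6 lower, summed to 395 to 809 CPM in MN1, 2470, 1217 and 2652 CPM in MN1pQdel and 2865 CPM in noTD, so that within MN1pQdel both lists were lowest in replicate 2. Megakaryocyte markers summed to 707, 233 and 513 CPM in MN1, 1076, 384 and 979 CPM in MN1pQdel and 897 CPM in noTD. Erythroid markers summed to 41.9, 19.0 and 42.2 CPM in MN1, 82.0, 12.6 and 83.3 CPM in MN1pQdel and 46.5 CPM in noTD. These lists had no gene called and were also lowest in replicate 2 within MN1pQdel. Over all genes tested, 11.1% were called lower. The part of these cells in the results for Ccl6 and Ccl9 was not tested.

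**Figure D2:**
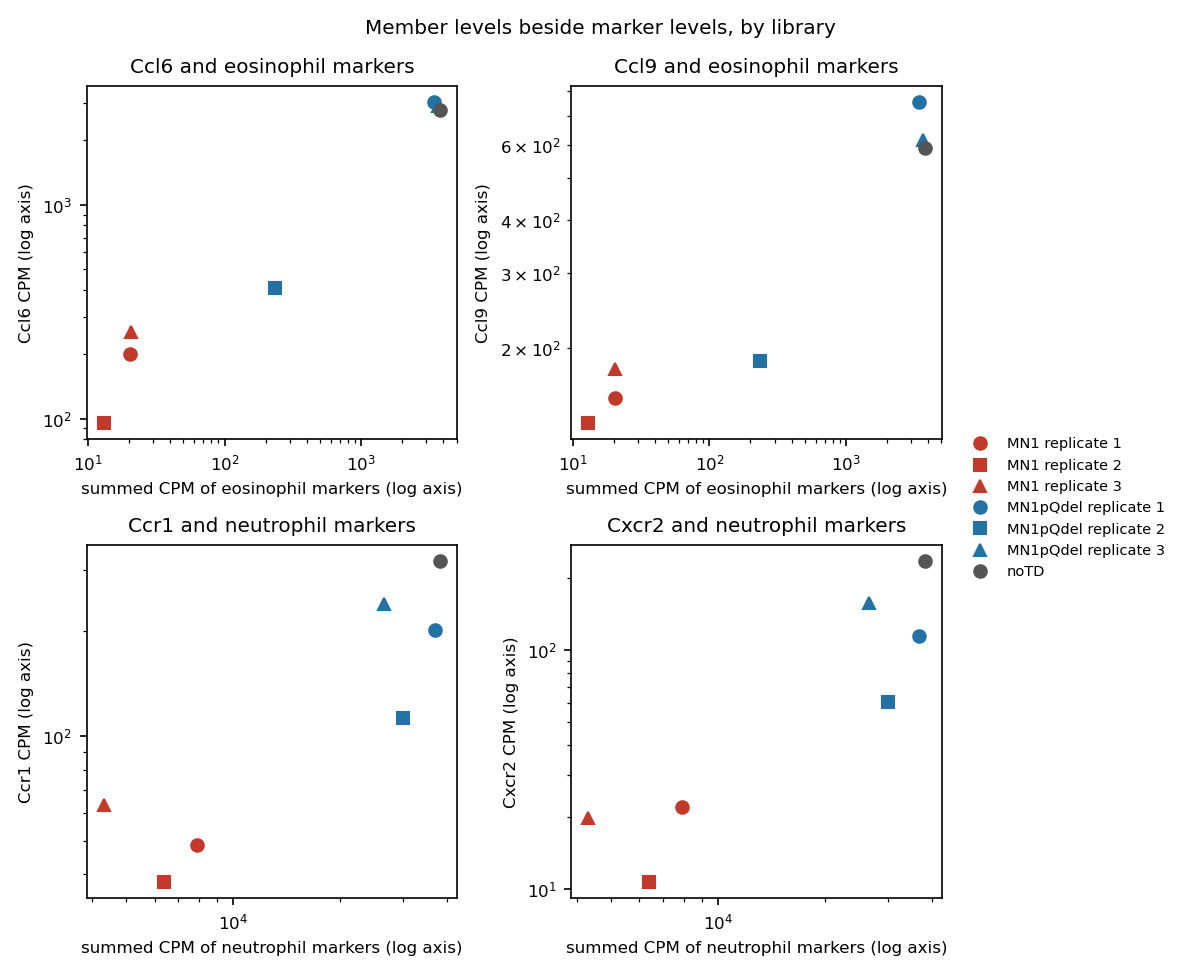
Level of Ccl6 and Ccl9 against the summed level of eosinophil markers, and of Ccr1 and Cxcr2 against that of neutrophil markers, with 1 point per library and both axes in CPM on log scales. MN1pQdel replicate 2 sits between the groups for eosinophil markers (235 CPM) but with its own group for neutrophil markers (30091 CPM).

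The remaining inflammatory CC ligands of the same stretch of chromosome 11 did not pass the test. Ccl3, a further ligand of Ccr1, and Ccl4 are among the main inflammatory chemokines of myeloid cells. Ccl3 stood at 101, 52.8 and 27.7 CPM in MN1 replicates 1 to 3, at 188, 51.1 and 120 CPM in MN1pQdel and at 139 CPM in noTD. The groups overlapped because MN1pQdel replicate 2 lay among the MN1 libraries, and the log2 fold change was -0.999 ± 0.59 (edgeR adjusted p = 0.251). Ccl4 stood at 25.6, 12.8 and 13.5 CPM in MN1, at 46.8, 9.90 and 42.9 CPM in MN1pQdel and at 38.8 CPM in noTD. Here MN1pQdel replicate 2 was the lowest of all 7 libraries, below every MN1 library, and the groups overlapped (-0.95 ± 0.58, adjusted p = 0.264), and without that library it passed the threshold (-1.37, adjusted p = 0.0158). Ccl5, a ligand of Ccr1 and Ccr3, had higher means in MN1 (2.42 CPM ± 1.54, SD, n = 3) than in MN1pQdel (0.957 ± 0.610), with a log2 fold change of 1.33 ± 0.65 (adjusted p = 0.180). Within each replicate number Ccl5 was higher in MN1, in 3 of 3 pairs, and with the replicate number as a block it passed the threshold (adjusted p = 0.0210). Across this cluster, at 83525778 to 83664683, 5 of 5 members were tested and 2 were called, both lower. Over all genes tested, 17.2% were called and 11.1% were called lower.

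A second cluster on chromosome 11, at 82035571 to 82305690, holds the monocyte-attracting ligands Ccl2, Ccl7 and Ccl12 together with Ccl8, Ccl11 and Ccl1. Ccl2, the main ligand of Ccr2, was abundant in all groups at 127, 47.3 and 115 CPM in MN1 replicates 1 to 3, 120, 61.6 and 92.0 CPM in MN1pQdel and 207 CPM in noTD. In both transduced groups replicate 2 was the lowest, and the groups overlapped (log2 fold change 0.07 ± 0.40, edgeR adjusted p = 0.914). Ccl7, a further Ccr2 ligand, stood at 69.6, 25.4 and 59.6 CPM in MN1, 27.7, 20.7 and 6.51 CPM in MN1pQdel and 34.9 CPM in noTD. It was the higher of each pair in MN1, but MN1 replicate 2 lay below MN1pQdel replicate 1, and the test was not passed (1.48 ± 0.57, adjusted p = 0.110). DESeq2 did call it (adjusted p = 0.0270). Ccl12 and Ccl8 were low, with means of 2.00 and 0.642 CPM in MN1 and 1.56 and 0.643 CPM in MN1pQdel, log2 fold changes of 0.33 and -0.03 and wide overlap.

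Ccl1 was the only called member of that cluster, and it was higher in MN1. It encodes a ligand of Ccr8 made by activated T cells and mast cells. It stood at 8.22, 1.94 and 7.55 CPM in MN1 replicates 1 to 3, at 0.211, 0.818 and 0.149 CPM in MN1pQdel and at 0.411 CPM in noTD. All MN1 libraries lay above all others, although replicate 2 of each group lay nearest to the other group. The log2 fold change was 3.89 ± 0.82 (edgeR adjusted p = 0.0264). The call was kept without MN1 replicate 2 (4.31, adjusted p = 0.0423) and without MN1pQdel replicate 2 (4.99, adjusted p = 0.00476). It was lost without MN1 replicate 1 or 3 or MN1pQdel replicate 1 or 3, at 3.53 to 3.68 with adjusted p from 0.0712 to 0.108. It was also lost with the replicate number as a block (3.95, adjusted p = 0.0531), although Ccl1 was higher in MN1 in 3 of 3 pairs. The gene model of Ccl1 on GRCm38 runs from 82176657 to 82305690, far beyond the RefSeq start beside the sequence shown above, so its counts may include a longer transcript. Its receptor Ccr8 had 0 counts in all 7 libraries, where 3 counts, the limit that a count of 0 allows, would be 0.0488 to 0.0822 CPM.

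Among the other CC ligands, eosinophil and mucosal ligands stayed low and none was called. Ccl17, a ligand of Ccr4, stood at 0.561, 0.185 and 0.467 CPM in MN1 replicates 1 to 3, at 1.84, 0.471 and 1.47 CPM in MN1pQdel and at 1.53 CPM in noTD. MN1pQdel replicate 2 reached only the level of MN1, and the log2 fold change was -1.65 ± 0.61 (edgeR adjusted p = 0.101). It passed the threshold without that library (-2.02, adjusted p = 0.0158) and with the replicate block (-1.60, adjusted p = 0.0205). Ccl24, a ligand of the eosinophil receptor Ccr3, had means of 7.95 ± 4.17 CPM (SD, n = 3) in MN1 and 12.8 ± 6.60 CPM in MN1pQdel, beside 4.58 CPM in noTD. Its log2 fold change of -0.70 ± 0.57 missed the threshold (adjusted p = 0.393) and passed it only with the block (adjusted p = 0.0495). Ccl27a, a ligand of Ccr10, stood at 1.80, 1.25 and 1.15 CPM in MN1, 0.765, 1.29 and 0.398 CPM in MN1pQdel and 0.164 CPM in noTD (MN1 over MN1pQdel 0.76 ± 0.45, adjusted p = 0.258). Its transduced libraries all lay above noTD, but 57.0% of its 31-base words occur in other genes, so its counts are uncertain. Ccl25, the ligand of Ccr9, and Ccl28, a further Ccr10 ligand, were not called, at log2 fold changes of -0.14 and -0.63 and mean levels of 4.52 and 0.306 CPM in MN1.

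Cxcl10, an interferon-induced CXC ligand of Cxcr3, was higher in MN1 than in MN1pQdel, and noTD lay between them. It lies on chromosome 5 at 92346638 to 92348889 (minus strand). It stood at 6.85, 3.91 and 8.42 CPM in MN1 replicates 1 to 3, at 0.634, 1.80 and 1.09 CPM in MN1pQdel and at 3.78 CPM in noTD. The MN1 libraries lay above noTD, replicate 2 only just, and the MN1pQdel libraries lay below it. The log2 fold change was 2.43 ± 0.47 (edgeR adjusted p = 0.0210). The call was kept without MN1 replicate 2 (2.69, adjusted p = 0.0438) or MN1pQdel replicate 2 (2.91, adjusted p = 0.00450). Without MN1 replicate 1 or 3 or MN1pQdel replicate 1 or 3 it was lost, at 2.14 to 2.39 with adjusted p from 0.0663 to 0.0782. Of its 31-base words 4.47% are shared with Art3. Its receptor Cxcr3 was scarce and ran the opposite way, with means of 0.145 ± 0.0967 CPM (SD, n = 3) in MN1 and 0.396 ± 0.0664 CPM in MN1pQdel, without overlap but not called (-1.46 ± 0.49, adjusted p = 0.0798). Without the replicate 2 pair Cxcr3 was called lower in MN1 (-2.14, edgeR adjusted p = 0.0258).

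The neutrophil-attracting ligands of Cxcr2 lie together on chromosome 5 at 90759360 to 90905938, and all 4 tested had higher means in MN1 without being called. Cxcl2 stood at 48.9, 32.1 and 4.88 CPM in MN1 replicates 1 to 3, at 25.5, 15.5 and 4.07 CPM in MN1pQdel and at 49.7 CPM in noTD. Replicate 3 was lowest in both groups, by far more than the groups differed (log2 fold change 0.92 ± 0.88, edgeR adjusted p = 0.471). With the replicate number as a block Cxcl2 passed the threshold (0.76, adjusted p = 0.0481), and it was higher in MN1 in 3 of 3 pairs. Cxcl1 had means of 1.99 ± 1.34 CPM (SD, n = 3) in MN1 and 0.435 ± 0.254 CPM in MN1pQdel, a log2 fold change of 2.16 ± 0.73. It missed the threshold (adjusted p = 0.0826), passed it with the block (adjusted p = 0.0129) and was also called by DESeq2 (adjusted p = 0.0191). Cxcl3 (0.89 ± 0.57) and Cxcl5 (1.13 ± 0.49) had adjusted p values of 0.291 and 0.139, and Cxcl5 was called without the replicate 2 pair (1.68, adjusted p = 0.0184). Cxcl2 shares 7.59% of its 31-base words with Cxcl3.

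Cxcl12, the ligand that holds stem cells in the marrow through Cxcr4, was near 0 in most libraries without MN1. It stood at 0.780, 0.810 and 0.976 CPM in MN1 replicates 1 to 3, at 0.0163, 0.327 and 0.0248 CPM in MN1pQdel and at 0.0274 CPM in noTD. MN1pQdel replicate 2 again lay nearest to MN1, and the groups did not overlap. These are 113 counts over the MN1 libraries against 1 count in noTD, a ratio of 31.4 after scaling (95% interval 5.52 to 1251, counting error only). Against MN1pQdel the log2 fold change was 2.78 ± 0.87 and missed the threshold (edgeR adjusted p = 0.0677), while DESeq2 called it (adjusted p = 0.0294). Without MN1pQdel replicate 2 it passed (5.26, adjusted p = 0.00117), where 113 counts stood against 2, a ratio of 43.8 (95% interval 11.8 to 365.7, counting error only). Markers of stromal and endothelial cells, which make Cxcl12 in marrow, summed to 170 to 200 CPM in MN1, 178 to 346 CPM in MN1pQdel and 305 CPM in noTD, a sum carried by Pecam1, which blood cells also express. Without Pecam1 the sum was 13.1 to 22.5 CPM in MN1, 14.4 to 21.7 CPM in MN1pQdel and 16.6 CPM in noTD. Of the 6 tested genes of this list, Pdgfrb, a receptor of pericytes and other stromal cells, was higher in MN1, at 10.8, 8.47 and 15.1 CPM against 4.67, 3.99 and 6.46 CPM in MN1pQdel and 3.15 CPM in noTD (1.17 ± 0.30, edgeR adjusted p = 0.0414). The collagen gene Col1a1 was lower in MN1, at 0.870 to 1.76 CPM against 5.16 to 9.57 CPM in MN1pQdel (-2.43 ± 0.38, adjusted p = 0.0116). The genes Cdh5, Col3a1 and Pdgfra stayed at or under 0.162 CPM. Lepr, also under the filter, stood at 0.0976, 0.0926 and 0.191 CPM in MN1 replicates 1 to 3. It stood at 0.146, 0.307 and 0.124 CPM in MN1pQdel and at 0.301 CPM in noTD. The part of stromal cells in the Cxcl12 values was not tested.

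Both transmembrane chemokines were low. Cxcl16, a ligand of Cxcr6 made by macrophages, stood at 0.732, 1.04 and 2.55 CPM in MN1 replicates 1 to 3, at 3.48, 2.86 and 2.81 CPM in MN1pQdel and at 6.28 CPM in noTD. The groups did not overlap, but MN1 replicate 3 came close to MN1pQdel (-1.10 ± 0.47, edgeR adjusted p = 0.139). Of its 31-base words 18.5% are shared with Zmynd15. Cx3cl1, the only ligand of Cx3cr1, reached at most 0.602 CPM in any library (-0.57 ± 0.51, adjusted p = 0.445).

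**Figure D3:**
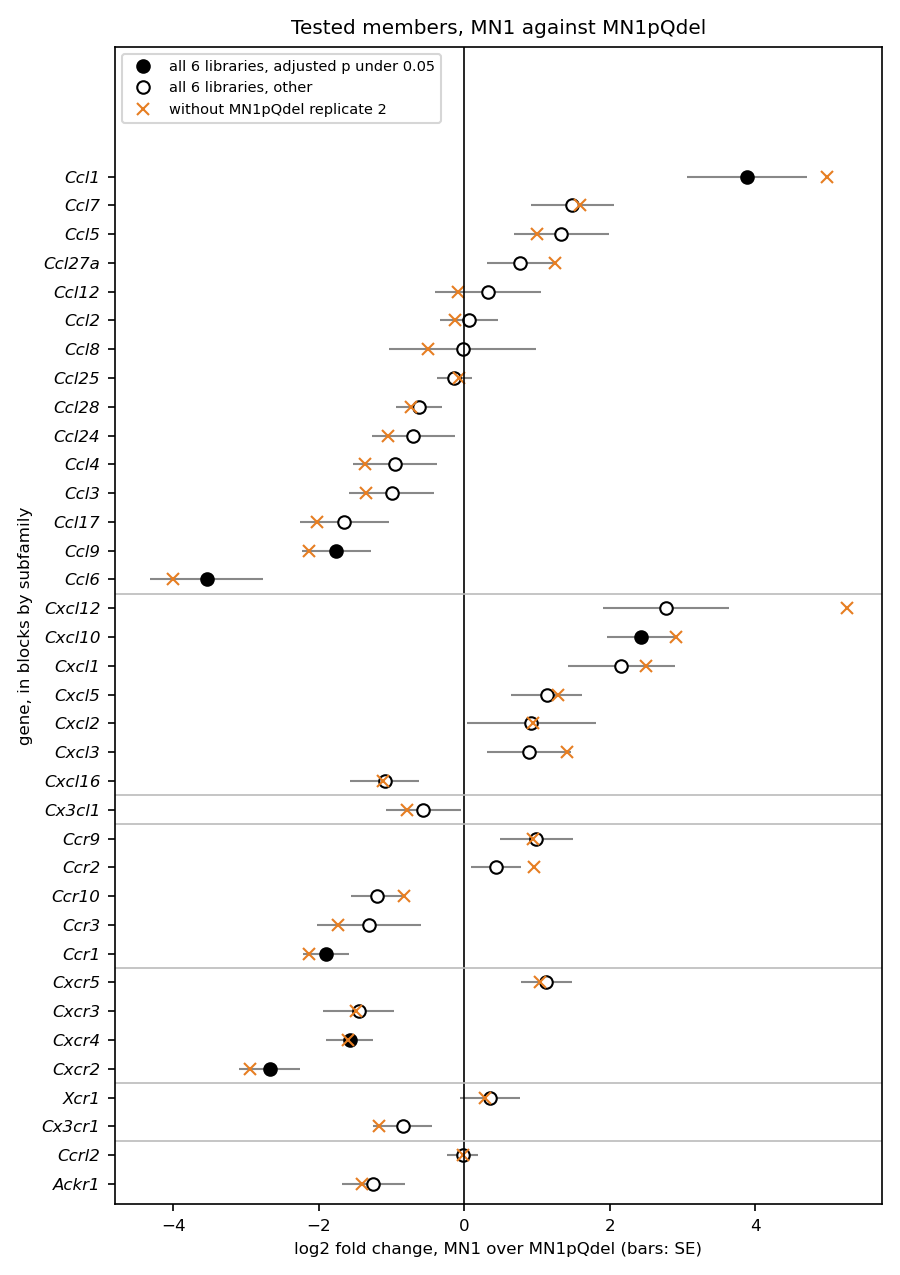
Log2 fold change of MN1 over MN1pQdel for the tested genes described in the text, with SE bars, filled points for the 7 that passed the test, and crosses for the value without MN1pQdel replicate 2. Genes are in blocks by subfamily. CXC ligands lie mostly to the right of 0 and CXC receptors, apart from Cxcr5, to the left.

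The receptors Cxcr2, Ccr1 and Cxcr4 were the other called genes. Cxcr2, the receptor through which neutrophils answer Cxcl1 and Cxcl2, had the smallest adjusted p of all members. It stood at 21.9, 10.6 and 19.8 CPM in MN1 replicates 1 to 3, at 114, 60.3 and 156 CPM in MN1pQdel and at 235 CPM in noTD. The groups were well separated, MN1pQdel replicate 2 included, and noTD was the highest library. Cxcr2 was lower in MN1 by a log2 fold change of -2.67 ± 0.42 (edgeR adjusted p = 0.0116). Of the 6 fits with a library left out, 4 kept the call. The fits without MN1 replicate 3 (-2.76, adjusted p = 0.0549) and without MN1pQdel replicate 1 (-2.63, adjusted p = 0.0516) narrowly lost it. Of its 31-base words 12.1% also occur in other genes. Cxcr1, the neighbouring receptor for the same class of ligands, was under the filter, at 0.122, 0 and 0.0636 CPM in MN1, 0.309, 0.0818 and 0.0497 CPM in MN1pQdel and 0.438 CPM in noTD.

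Ccr1 binds Ccl3, Ccl5, Ccl6 and Ccl9 and is carried by neutrophils, monocytes and eosinophils. It lies on chromosome 9 at 123962124 to 123968692 (minus strand). It stood at 48.6, 37.9 and 63.2 CPM in MN1 replicates 1 to 3, at 202, 113 and 240 CPM in MN1pQdel and at 319 CPM in noTD. The lowest MN1pQdel library, replicate 2, was still well above the highest MN1 library. Ccr1 was lower in MN1 by a log2 fold change of -1.91 ± 0.32 (edgeR adjusted p = 0.0132). The call was kept without MN1 replicate 3, MN1pQdel replicate 2 or MN1pQdel replicate 3. Without MN1 replicate 1, MN1 replicate 2 or MN1pQdel replicate 1 it was lost, at -1.88, -1.74 and -1.82 with adjusted p from 0.0573 to 0.0599. Ccr1 and its ligands Ccl6 and Ccl9 were thus called lower in MN1, while its ligands Ccl3 and Ccl5 were not called. Ccl3 had a log2 fold change of -0.999 (edgeR adjusted p = 0.251). Ccl5 went the other way (1.33, adjusted p = 0.180) and was called higher with the replicate block (adjusted p = 0.0210).

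Cxcr4, the receptor for Cxcl12, was lower in MN1 as well, but against noTD its pattern differed from that of Cxcr2 and Ccr1. It lies on chromosome 1 at 128588199 to 128592293 (minus strand). It stood at 22.7, 42.5 and 54.9 CPM in MN1 replicates 1 to 3, at 98.3, 112 and 144 CPM in MN1pQdel and at 119 CPM in noTD. The untransduced library thus lay within the MN1pQdel range, and MN1pQdel replicate 2 was in the middle of its group. The log2 fold change was -1.58 ± 0.32 (edgeR adjusted p = 0.0238). The call was kept without MN1 replicate 1, MN1 replicate 3 or MN1pQdel replicate 2. It was lost without MN1 replicate 2 or MN1pQdel replicates 1 or 3, at -1.68 to -1.40 with adjusted p from 0.0662 to 0.0860. Per kilobase of transcript, Cxcr4 and Ccr1 had the same mean level in MN1pQdel (65.4 CPM each), and 22.2 and 17.6 CPM in MN1, above Cxcr2 at 36.2 and 5.73 CPM.

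The receptors Ccr2 and Cx3cr1, typical of monocytes and macrophages, did not pass the test. Ccr2, which answers Ccl2 and Ccl7, stood at 108, 115 and 133 CPM in MN1 replicates 1 to 3, at 70.5, 140 and 51.9 CPM in MN1pQdel and at 92.6 CPM in noTD. Here MN1pQdel replicate 2 was the highest of all libraries and made the groups overlap (log2 fold change 0.43 ± 0.34, edgeR adjusted p = 0.385). Without it, Ccr2 was higher in MN1 (0.96, adjusted p = 0.00595). Cx3cr1, a receptor of monocytes and macrophages for Cx3cl1, stood at 2.73, 2.96 and 2.97 CPM in MN1, 6.18, 2.39 and 6.86 CPM in MN1pQdel and 13.9 CPM in noTD. All transduced libraries lay below noTD, and MN1 was called lower only without MN1pQdel replicate 2 (-0.85 ± 0.41, adjusted p = 0.172 with it, and -1.17, adjusted p = 0.00674 without it) or without the replicate 2 pair.

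Ccr9, Cxcr6, Xcr1, Ccr1, Ccr3 and Ccr2 lie close together on chromosome 9, and of these Ccr1 alone was called. Ccr3, the eotaxin receptor of eosinophils, stood at 0.976, 0.324 and 1.06 CPM in MN1 replicates 1 to 3, at 2.41, 0.491 and 2.91 CPM in MN1pQdel and at 4.82 CPM in noTD. It was low in the same libraries as the eosinophil markers given above, and its log2 fold change of -1.31 ± 0.72 missed the threshold (edgeR adjusted p = 0.221). It passed without MN1pQdel replicate 2 (-1.74, adjusted p = 0.0307) and with the replicate block (-1.18, adjusted p = 0.0441). Ccr9, the Ccl25 receptor of gut-homing cells, and Xcr1, a receptor of cross-presenting dendritic cells, had log2 fold changes of 0.99 and 0.35 and stayed at or under 1.68 CPM. Dendritic cell markers, a list that itself holds Xcr1 and Ccr7, summed to 98.1 to 133 CPM in MN1, 30.9 to 51.0 CPM in MN1pQdel and 64.4 CPM in noTD. The higher sum in MN1 came from Flt3, which progenitors also express (64.4 to 111 CPM in MN1 and 0.248 to 7.00 CPM in MN1pQdel). Without Flt3 the list summed to 21.5 to 40.5 CPM in MN1, 23.9 to 49.7 CPM in MN1pQdel and 62.8 CPM in noTD, and its gene Itgax was lower in MN1 (-2.46 ± 0.59, edgeR adjusted p = 0.0353). Of the 31-base words of Ccr9, 21.7% also occur in other genes.

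Receptors of lymphoid cells were scarce. Ccr10 had means of 0.350 ± 0.0173 CPM (SD, n = 3) in MN1 and 0.807 ± 0.311 CPM in MN1pQdel without overlap, and just missed the threshold (-1.21 ± 0.35, edgeR adjusted p = 0.0591). Cxcr5, the receptor that draws B cells into follicles, lay at 0.320 ± 0.0581 CPM in MN1 and 0.142 ± 0.0320 CPM in MN1pQdel, also without overlap (1.13 ± 0.35, adjusted p = 0.0682). With libraries scaled by their totals alone it was called (adjusted p = 0.0418). Ccr4 did not pass the filter, at 0.0976, 0.116 and 0.0848 CPM in MN1 and 0.293, 0.184 and 0.298 CPM in MN1pQdel, and was tested and called lower when MN1pQdel replicate 2 was left out (-1.55, adjusted p = 0.0277). The T cell genes Cd3e and Cd3d reached at most 0.110 and 3.23 CPM in any library. T and NK cell markers summed to 24.4 to 35.8 CPM in MN1, 14.3 to 30.5 CPM in MN1pQdel and 15.7 CPM in noTD. B cell markers summed to 109 to 116 CPM in MN1, 17.1 to 81.2 CPM in MN1pQdel and 29.0 CPM in noTD, mostly from Ighm. No gene of either list was called, and the part of these cells was not tested.

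Of the atypical receptors, Ackr1 and Ccrl2 were tested. Ackr1, which binds many inflammatory CC and CXC chemokines without G protein signalling, stood at 1.88, 0.648 and 1.06 CPM in MN1 replicates 1 to 3, at 3.38, 2.07 and 3.01 CPM in MN1pQdel and at 5.95 CPM in noTD. The groups did not overlap and noTD was highest, but the test was not passed (-1.25 ± 0.44, edgeR adjusted p = 0.0887). With the replicate block it passed (-1.34, adjusted p = 0.0300), as it did with DESeq2 (adjusted p = 0.0345). Of its 31-base words 23.0% are shared with Cadm3, so its counts are uncertain. Ccrl2, which presents chemerin at the cell surface, had close means of 8.89 ± 1.75 CPM (SD, n = 3) and 8.96 ± 0.710 CPM in the 2 groups (-0.02 ± 0.21, adjusted p = 0.944), beside 16.3 CPM in noTD.

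Against the single noTD library there is no test, and a gene was counted when each library of a group differed from noTD at least 2-fold in the same direction. In MN1, 14 of 42 members passing the filter did so (33.3%), beside 18.7% of all 16216 genes. Lower in MN1 were Ackr1, Ccl17, Ccl6, Ccl9, Ccr1, Ccr3, Cx3cr1, Cxcl16, Cxcr1, Cxcr2 and Cxcr4, which is 11 genes beside 11.4% of all genes. Higher were Ccl1, Ccl27a and Cxcl12, beside 7.32% of all genes. In MN1pQdel, 3 of 42 members did so (7.14%), beside 1.49% of all genes: Ccl27a was higher, beside 0.506% of all genes, and Cx3cr1 and Cxcl10 were lower, beside 0.981%. Without MN1pQdel replicates 1, 2 or 3 in turn, with 2 libraries to pass the rule in place of 3, the MN1pQdel count was 8, 8 and 6, beside 3.12%, 2.71% and 2.66% of all genes. Both comparisons share the 1 noTD library, whose own deviation enters each of them, and the median difference of all genes was -0.0017 for MN1 and 0.0060 for MN1pQdel.

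The 2 groups' mean log2 differences from noTD are given side by side for these genes. Cxcr2 lay at -3.84 in MN1 and -1.22 in MN1pQdel, Ccr1 at -2.73 and -0.88, and Ccl6 at -4.06 and -0.89. Cxcr4 lay at -1.68 and -0.05, and Ccl9 at -1.96 and -0.43. The MN1pQdel means of Ccl6 and Ccl9 came from replicate 2 alone: replicates 1 and 3 lay at 0.09 and 0.04 for Ccl6 and at 0.33 and 0.05 for Ccl9, and replicate 2 at -2.79 and -1.68. Cx3cr1 (-2.27 and -1.58), Ccr3 (-2.73 and -1.65), Cxcr1 (-2.41 and -1.61), Ackr1 (-2.42 and -1.12) and Cxcl16 (-2.31 and -1.06) had negative means in both groups. Ccl17 lay at -1.95 and -0.50. Of the genes above noTD in MN1, Ccl1 lay at 3.44 and -0.40, Cxcl12 at 3.64 and 0.69, and Ccl27a at 2.75 and 1.89.

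**Figure D4:**
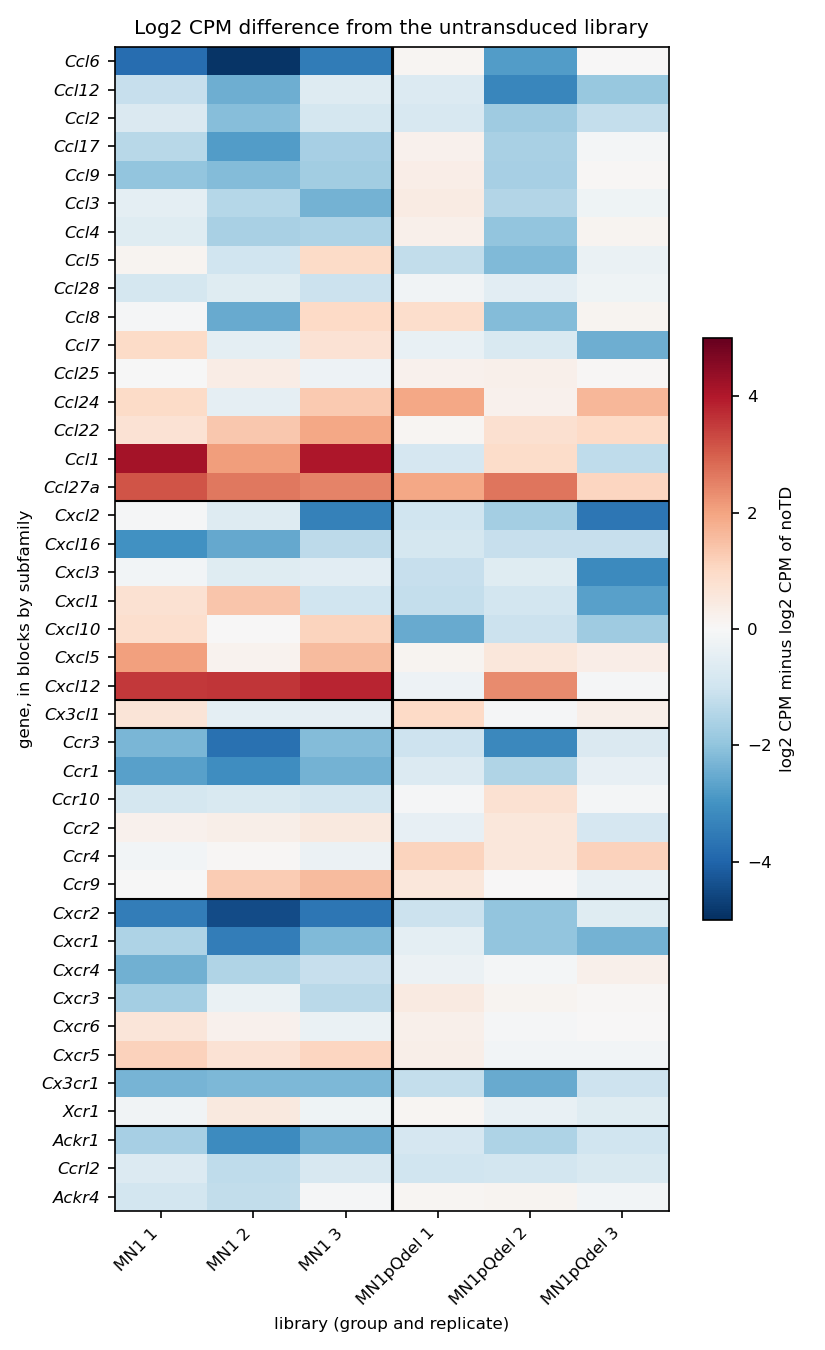
Log2 CPM of each transduced library minus that of the noTD library for the members described in the text that passed the filter, with genes in blocks by subfamily and libraries in columns (blue below noTD, red above). The MN1 columns are blue for Ccl6, Ccl9, Ccr1, Cxcr2 and Cxcr4, where MN1pQdel replicates 1 and 3 are paler. These 2 libraries still lie below noTD for Cxcr2 (-1.07 and -0.60) and Ccr1 (-0.69 and -0.42).

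The choice of libraries changed how many members were called more than the choice of scaling or filter did. Without MN1pQdel replicate 2, 15 of 39 members tested were called, beside 41.9% of all genes: 4 were higher, beside 20.6%, and 11 lower, beside 21.3%. The 7 genes named above were all among them, and Ackr1, Ccl17, Ccl4, Ccr3, Ccr4 and Cx3cr1 were added as lower and Ccr2 and Cxcl12 as higher. Without both replicate 2 libraries, 16 of 38 were called, beside 34.8% of all genes. With the replicate number as a block, 13 of 37 were called, beside 30.7% of all genes: 4 were higher, beside 13.7%, and 9 lower, beside 17%. It added Ackr1, Ccl17, Ccl24, Ccr3, Ccl5, Cxcl1 and Cxcl2 and lost Ccl1. Without MN1pQdel replicate 1 edgeR called 0 of 38 members, beside 3.36% of all genes. DESeq2 with all libraries called 11 of 37, beside 29.3% of all genes, and added Ackr1, Ccl7, Cxcl1 and Cxcl12. RLE size factors, no filter and a filter of 1 CPM in 3 libraries each called 7 members, beside 17%, 10.2% and 19.2% of all genes. The members' share thus moved with that of all genes: without MN1 replicates 1, 2 or 3 or MN1pQdel replicate 3 there were 2, 3, 2 and 2 calls, beside 4.14%, 4.47%, 3.34% and 6.19% of all genes. Scaling by library totals alone shifted the median of all genes by 0.20 on the log2 scale and called 7 members, beside 20.2% of all genes, with Cxcr5 in and Ccl9 out. They split into 3 higher, beside 12.5%, and 4 lower, beside 7.7%. Under that scaling 61.8% of all genes called were higher in MN1, against 35.4% with TMM.

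Downstream of the receptors, many genes were lower in MN1. Lists of signalling genes, receptor desensitisation, ligand processing and chemokine-inducing factors hold 88 genes, all tested, of which 38 were called (43.2%), 3 higher and 35 lower, beside 17.2% of all genes. The lists were chosen with earlier results of these data known. In the chemokine signalling list 20 of 31 genes were lower and 0 higher, beside 11.1% and 6.08% of all genes. The median log2 fold change of this list was -0.67 beside -0.01 over all genes. At an unadjusted p under 0.05 the count of higher genes in that list was 0, and DESeq2 also called 0 higher. Fgr, a Src family kinase of myeloid cells, was lower (edgeR log2 fold change -2.41 ± 0.22). So were Pik3r5, a subunit of phosphoinositide 3-kinase gamma (-1.76 ± 0.19), and Rac2, the blood cell form of Rac (-1.22 ± 0.17). Gnai2, the most abundant gene of the list, encodes an inhibitory G protein subunit and fell from 1182 ± 117 CPM (SD, n = 3) in MN1pQdel to 702 ± 21.5 CPM in MN1 (-0.76 ± 0.12, adjusted p = 0.0111). The adjusted p of these 4 genes lay between 0.00497 and 0.0111. The count in this list fell to between 7 and 12 without any 1 of the MN1 libraries or MN1pQdel replicates 1 or 3, where 3.34% to 6.19% of all genes were called, and was 26 without MN1pQdel replicate 2, beside 41.9%.

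Genes that switch the receptors off were lower too, 8 of 14, with 0 higher and a median of -0.98. Over all genes, 11.1% were called lower and 6.08% higher. Arrb2, an arrestin, was lower with a log2 fold change of -1.87 ± 0.24, and the receptor kinase gene Grk2, the most abundant of the list, with -0.89 ± 0.13 (edgeR adjusted p = 0.00742 and 0.00931). The RGS genes Rgs14, Rgs3 and Rgs2, which shorten G protein signals, were lower by values of -1.73, -1.68 and -0.9996. The count was 4 to 5 without any 1 of the 3 MN1 libraries and 12 without MN1pQdel replicate 2. In those fits 3.34% to 4.47% and 41.9% of all genes were called. Of 24 genes for processing and matrix binding, 4 were lower and 3 higher, beside 11.1% and 6.08% of all genes, with a median of -0.22. Mmp9, a neutrophil gelatinase that cleaves CXC ligands, stood at 10.8, 6.90 and 8.15 CPM in MN1 replicates 1 to 3, at 634, 128 and 367 CPM in MN1pQdel and at 948 CPM in noTD (-5.47 ± 0.63, adjusted p = 0.00554). Mmp8 (-1.56 ± 0.21) and Srgn, the granule proteoglycan serglycin and the most abundant of the list (-1.34 ± 0.36, adjusted p = 0.0491), were lower as well. Dpp4, the peptidase that inactivates Cxcl12, was higher, at 17.2, 9.81 and 14.0 CPM in MN1 against 3.77, 4.75 and 2.06 CPM in MN1pQdel (1.94 ± 0.36, adjusted p = 0.0194). The other genes called higher were Adam17, the sheddase of Cx3cl1 and other membrane proteins (0.53), and Ext1, a heparan sulfate polymerase (1.20). The count in this list ran from 3 to 5 without any 1 of the MN1 libraries or MN1pQdel replicates 1 or 3 to 16 without MN1pQdel replicate 2, and it was 13 with the replicate block. In those fits 3.34% to 6.19%, 41.9% and 30.7% of all genes were called. Pf4 and Ppbp were in it and not called, with log2 fold changes of 0.07 and -2.41 (adjusted p = 0.930 and 0.0671).

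Of 19 transcription factors and regulators known to induce chemokine genes, 3 were lower and 0 higher, a share near the 17.2% of all genes called, with a median of -0.13. They were Cebpd (-1.56 ± 0.21), Cebpb (-0.81 ± 0.15) and Spi1, which encodes PU.1 and was the most abundant (-0.98 ± 0.16), with edgeR adjusted p from 0.00811 to 0.0186. At an unadjusted p under 0.05 the count of higher genes in this list was 0, and DESeq2 called 0 higher. None of the NF-kB, STAT and IRF genes of the list was called in this fit. The count was 1 without MN1pQdel replicate 1, 6 without MN1pQdel replicate 2 and 5 with the replicate block, where 3.36%, 41.9% and 30.7% of all genes were called. The granulocyte and monocyte markers given above were lower in MN1 along with the lower genes of these 4 lists, Mmp8 and Mmp9 are in the neutrophil list as well, and the part of those cells was not tested.

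**Figure D5:**
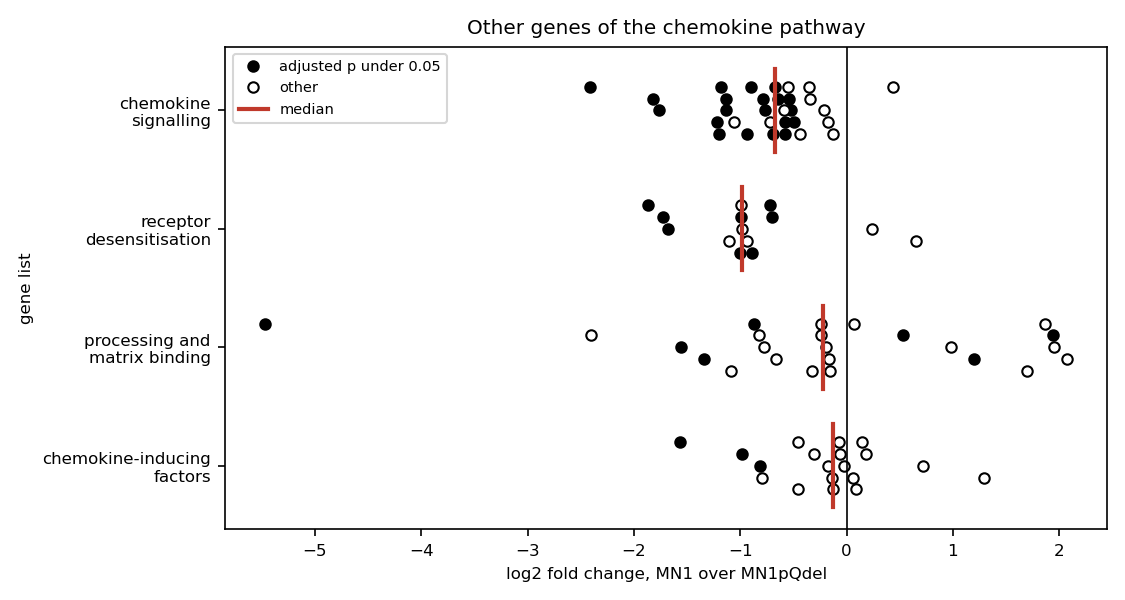
Log2 fold change of MN1 over MN1pQdel for the genes of the 4 pathway lists, 1 point per gene, filled where the adjusted p was under 0.05, with a red line at each list's median. The medians lie at -0.67, -0.98, -0.22 and -0.13 from top to bottom.

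The 25 members that did not pass the filter stayed at or under 0.438 CPM and 19 counts in every library, the highest value being Cxcr1 in noTD. Of these, 15 had fewer than 5 counts in every library and 5 had 0 counts in all libraries after rounding. At this depth their levels could not be compared between groups. They included the homeostatic ligands Ccl19, Ccl21a, Ccl21b, Ccl20 and Cxcl13, the interferon-induced Cxcl9 and Cxcl11, the receptors Ccr6, Ccr7 and Cxcr6, and Xcl1.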

How the data were processed

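RNA-seq was measured in 7 libraries of mouse HSPCs: 3 MN1, 3 MN1pQdel and 1 noTD. The deposited table holds the authors' estimated counts per gene symbol, made with kallisto on GRCm38 and used with DESeq2, per the submitters' processing notes. The strand setting was not given in the sources used here, nor were the transcript index and the tool versions. Of the deposited values 32.5% are not whole, so they were rounded. The table has 34305 rows, and 26 of them carry calendar dates in place of symbols (0.172% of the counts).

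Genes kept by filterByExpr (14808) were tested with edgeR 4.0.16 (R 4.3.3): TMM scaling, the quasi-likelihood test of MN1 against MN1pQdel over 6 libraries and Benjamini-Hochberg adjustment, with calls under 0.05. SE is the fold change divided by the root of F. The comparison with noTD used log2 CPM with a prior count of 2 and a 2-fold rule over 16216 genes. The script was tested on simulated data. Alternatives were library totals, RLE size factors, DESeq2 1.42.0, other filters, a replicate block and libraries left out.

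Same-numbered libraries of the 2 groups deviated together (correlations 0.258 to 0.367, against -0.282 to -0.0599 for other pairs). Deviations from a group's own mean cancel out, so the negative values follow in part from the positive ones and add no separate evidence. The main test used the group only and ignored the replicate numbers. Pairs and the replicate block are given beside it as alternatives. The pairing is read from these correlations, because no label explains the replicate numbers.

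Members and gene lists were chosen with earlier results of these data known. Values in every library are given for members that were called, that passed 2-fold against noTD in every library of a group, or whose mean reached 20 CPM in a group; the other tested members are given by level and fold change. 2 genes, 1 of them a member, are counted but not reported here. From each pathway list up to 4 called genes with the largest change and the most abundant gene are named, apart from that exception. Of the 62 members 58 were matched in the GRCm38 annotation. Shared 31-base words between transcripts of different genes were counted, and promoters come from RefSeq (GRCm38.p6). Of 195 entries in the pathway and marker lists, 1 was not found in the table. T and NK, B, erythroid and megakaryocyte markers had no gene called (of 3, 3, 6 and 6 tested, by edgeR). Of 11 progenitor markers 4 were higher, of 6 basophil markers 3 were lower, and of 7 dendritic and 6 stromal and endothelial markers 1 each was higher and 1 lower.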

Additional observations from a re-analysis of the deposited data

Results flagged for a closer look

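2 genes lay on opposite sides of the noTD library in the 2 transduced groups, in all 3 libraries of each. The mean log2 difference of Cxcl10 from noTD was 0.66 in MN1 and -1.79 in MN1pQdel, a gap of 2.45. The MN1 against MN1pQdel comparison tests this gap, and edgeR called it (adjusted p = 0.0210). The mean log2 difference of Cxcr3, its receptor, was -1.12 in MN1 and 0.21 in MN1pQdel, a gap of -1.33 that edgeR did not call with all libraries (adjusted p = 0.0798). Without the replicate 2 pair edgeR called Cxcr3 lower in MN1 (adjusted p = 0.0258). Levels of Cxcr3 were under 0.473 CPM in every library, and both sides rest on the same single noTD library.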

How the results depend on the processing

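Against the 2544 genes and 7 members called, DESeq2 called 4342 and 11, the replicate block 4545 and 13, and the fit without the replicate 2 pair 5247 and 16. With 1 library left out the counts ran from 506 to 6394 for all genes, from 0 to 15 for members and from 16 to 60 for the 88 pathway genes (38 with all libraries). The 3 members past 2-fold in MN1pQdel against noTD became 6 to 8, and the share of all genes rose from 1.49% to between 2.66% and 3.12%. RLE size factors and both other filters called 7 members. The cause was not tested. The replicate block added calls for Ackr1, Ccl17, Ccl24, Ccr3, Ccl5, Cxcl1 and Cxcl2 and lost that of Ccl1 (3.95, edgeR adjusted p = 0.0531). It changed the call of no other tested member. Log2 fold changes near 0 changed sign: with library totals Ccl25 was 0.061, Ccl8 0.22 and Ccrl2 0.18, with the replicate block Ccl2 was -0.0012, and without the replicate 2 pair Ccl8 was 0.042 and Ccrl2 0.15. With 1 library left out Ccl2 ran from -0.18 to 0.40, Ccl8 from -0.99 to 0.76, Ccl12 from -0.090 to 1.24, Ccl25 from -0.32 to 0.012 and Ccrl2 from -0.13 to 0.13. With 3 libraries a group and 1 untransduced library, members under about 1 CPM rest on few counts, and a missed threshold does not show equal levels.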
